A study of Mus musculus with 43 samples.

Results

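The genes described here were 10 members of the Notch pathway, namely the receptors Notch1, Notch2 and Notch3, the ligands Dll1, Dll3 and Jag1, the nuclear factor Rbpj and the targets Hes1, Hes5 and Hey1. They were chosen by name, and all 10 were found among the 55416 gene identifiers of the count tables. The study purified 4 glial cell types from the cerebral cortex of 3-month-old Rag2-/- mice, which lack mature T and B lymphocytes, and of immunocompetent littermates, and sequenced their RNA in 43 libraries. Astrocytes and microglia had 6 control and 6 Rag2-/- libraries each, OPCs (oligodendrocyte precursor cells) had 6 and 5, and oligodendrocytes had 4 and 4. The controls of pairs 1, 2, 3 and 5 were Rag2+/- and those of pairs 4 and 6 were Rag2+/+, and all mice came from crosses of Rag2+/- parents in 1 clean colony. The 12 mice formed 6 littermate pairs, and the females were both mice of pairs 2 and 5 and the Rag2-/- mouse of pair 6. The Rag2 deletion is carried in every cell, so the mice lacked lymphocytes throughout life and not only in the adult brain. Cells were captured one type after another on dishes coated with antibodies, against CD45 for microglia, PDGFRα for OPCs, GalC for oligodendrocytes and HepaCAM for astrocytes.

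Notch signaling passes between neighboring cells. A ligand on one cell (Delta-like or Jagged) binds a receptor on the next, proteases free the intracellular part of the receptor, and this part enters the nucleus and binds the DNA-binding protein RBPJ to switch on genes of the Hes and Hey families, which encode transcriptional repressors. Without the receptor fragment RBPJ represses the same genes. In the developing brain the pathway is known for holding neural progenitors undifferentiated, for favoring astrocyte fate and for delaying the maturation of OPCs, and in vessels Notch3 is known as the receptor of mural cells (pericytes and smooth muscle cells).

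RBPJ recognizes the letters GTGGGAA, or their core TGGGAA. The 250 bases before the start of the Ensembl canonical transcript were searched on both strands of the GRCm39 genome. GTGGGAA was present upstream of 3 of the 10 members, among them Hes1 and Hes5, and in 5.5% of such windows over 21770 protein-coding genes. The core TGGGAA, which every GTGGGAA contains, was present upstream of these 3 members and of Rbpj itself, and in 22.7% of all windows. The windows of Hes1 and Hes5 are shown because both are targets whose RNA was higher in astrocytes than in OPCs without overlap between libraries. The sequences run 5′ to 3′ on the strand of the gene and end at the base before the transcript start. Capitals mark each copy of TGGGAA or GTGGGAA, or of their complements TTCCCA and TTCCCAC.
Hes1, chr16:29883877-29884126, plus strand: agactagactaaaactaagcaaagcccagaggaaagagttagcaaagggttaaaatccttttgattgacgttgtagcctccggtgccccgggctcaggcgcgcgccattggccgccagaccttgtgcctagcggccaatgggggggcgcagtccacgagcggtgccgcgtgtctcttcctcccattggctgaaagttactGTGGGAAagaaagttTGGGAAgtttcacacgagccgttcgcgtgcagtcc
Hes5, chr4:155045123-155045372, plus strand: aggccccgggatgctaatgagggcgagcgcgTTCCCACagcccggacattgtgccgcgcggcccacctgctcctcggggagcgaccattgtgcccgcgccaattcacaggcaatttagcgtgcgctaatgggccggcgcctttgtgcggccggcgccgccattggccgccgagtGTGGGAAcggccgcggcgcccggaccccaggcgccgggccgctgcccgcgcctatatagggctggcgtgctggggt
Upstream of Hes1 a GTGGGAA and a further TGGGAA pointed the same way, with their cores 49 and 35 bases before the start. Upstream of Hes5 one copy lay 219 bases before the start on the opposite strand and one 75 bases before it on the gene's strand. A match of letters is a description of the sequence, and binding was not measured.

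Levels are given as normalized CPM, which are CPM (counts scaled to a common library total) after the TMM scaling of edgeR across all 43 libraries, and as normalized CPM per kb of exon where genes are set beside each other. The libraries held 6499417 to 23118497 counts on genes, with a median of 10447042. The mitochondrial genome took 45.82% to 60.06% of these counts in oligodendrocytes, 22.42% to 36.67% in OPCs, 22.53% to 45.06% in astrocytes and 6.75% to 11.68% in microglia. Rag2 itself had 0 counts in 19 of 22 control libraries and in 21 of 21 Rag2-/- libraries, with at most 4 counts in any, so its RNA cannot check the labels. The labeled cell type had the highest summed level of its own marker list in each case. Other lists were present at lower levels: the astrocyte list reached 15.87% of its astrocyte level in OPC libraries and 10.19% in oligodendrocyte libraries, the oligodendrocyte list reached 15.42% of its oligodendrocyte level in astrocyte libraries, and the OPC list reached 13.98% of its OPC level in oligodendrocyte libraries. All libraries of a cell type were sequenced on the same lane, so effects of the lane and of the cell type cannot be told apart. In RNA from pooled cells, fewer cells of a type and less RNA per cell cannot be told apart either.

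The 10 genes differed between the cell types by role and, within the receptors and ligands, by gene. Summed receptor RNA was highest in astrocytes and microglia, Delta-like ligand RNA in OPCs, target RNA in astrocytes and Rbpj RNA in microglia. Single receptors departed from their sum. Mean Notch3 was 12.1 normalized CPM in astrocytes and 1.72 in microglia, and mean Notch1 was 117 in microglia and 111 in OPCs. Summed per kb of exon, the 3 receptors reached 24.2 ± 2.49 (SD, n = 12) normalized CPM per kb in astrocytes and 23.3 ± 2.12 (n = 12) in microglia, against 11.5 ± 1.19 (n = 11) in OPCs and 3.70 ± 1.03 (n = 8) in oligodendrocytes. The 3 ligands summed to 12.9 ± 1.99 per kb in OPCs, 4.50 ± 2.30 in oligodendrocytes, 4.30 ± 0.778 in astrocytes and 0.968 ± 0.317 in microglia. The 3 targets summed to 75.4 ± 17.1 per kb in astrocytes, 27.2 ± 6.35 in OPCs, 6.13 ± 5.72 in oligodendrocytes and 1.46 ± 0.557 in microglia. The ligand sums of OPC libraries, 10.5 to 17.3 per kb, lay above those of every other library, of which the highest was 7.31 in an oligodendrocyte library. In the same way the astrocyte target sums, 52.8 to 110, lay above the OPC sums, 19.4 to 42.7. Within astrocytes the member with the highest level per kb was Hes5, within OPCs Hey1 and within microglia Rbpj. In oligodendrocytes it was Hey1 over the length of all exons and Rbpj over the canonical transcript alone.

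**Figure D1:**
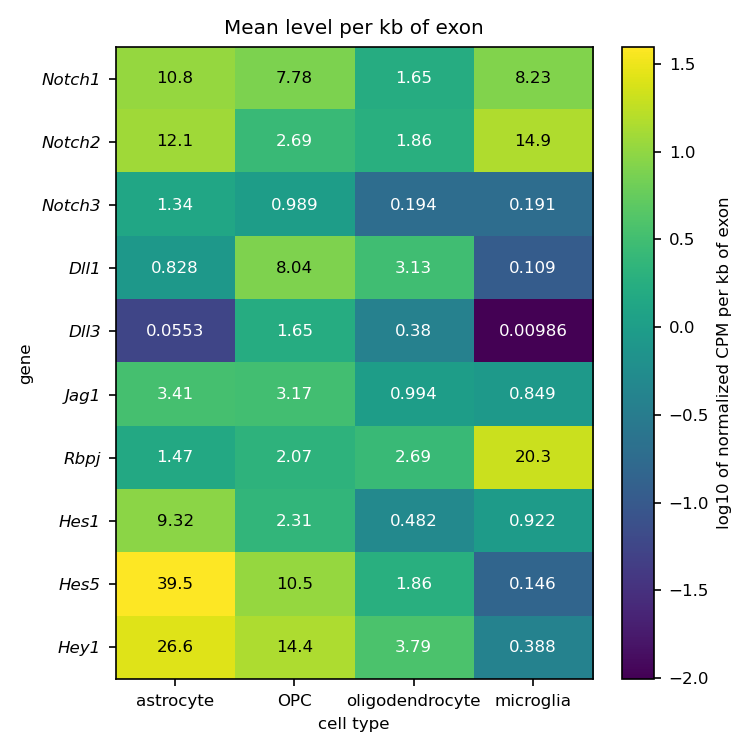
Mean level of the 10 genes (rows) in the 4 cell types (columns), in normalized CPM per kb of exon, printed in each cell and colored on a log10 scale. Hes5 in astrocytes had the highest value (39.5) and Dll3 in microglia the lowest (0.00986).

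Cell types were compared in edgeR's quasi-likelihood test over all libraries, with a term for sex, the mean of both genotypes for each cell type, and p-values adjusted by Benjamini-Hochberg over 21368 genes. Differences between cell types were common over all genes, so the share of all genes is given beside each count. Between astrocytes and OPCs 8 of the 10 members passed an adjusted p of 0.05, where 42.6% of all genes did. Between astrocytes and oligodendrocytes 10 of 10 passed, where 49.7% of all genes did. Between astrocytes and microglia 10 of 10 passed, where 70.0% of all genes did. Between OPCs and oligodendrocytes 9 of 10 passed, where 40.7% of all genes did. Between OPCs and microglia 9 of 10 passed, where 69.5% of all genes did. Between oligodendrocytes and microglia 9 of 10 passed, where 68.0% of all genes did. The median log2 difference of the members was 0.44 for astrocytes minus OPCs against -0.14 over all genes, 2.22 for OPCs minus oligodendrocytes against 0.24, and -0.41 for oligodendrocytes minus microglia against -0.09. Scaling by plain library totals in place of TMM moved the median of all genes to -0.53, 1.25 and -0.98 in these 3 comparisons, so small differences between cell types depend on the scale chosen.

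**Figure D2:**
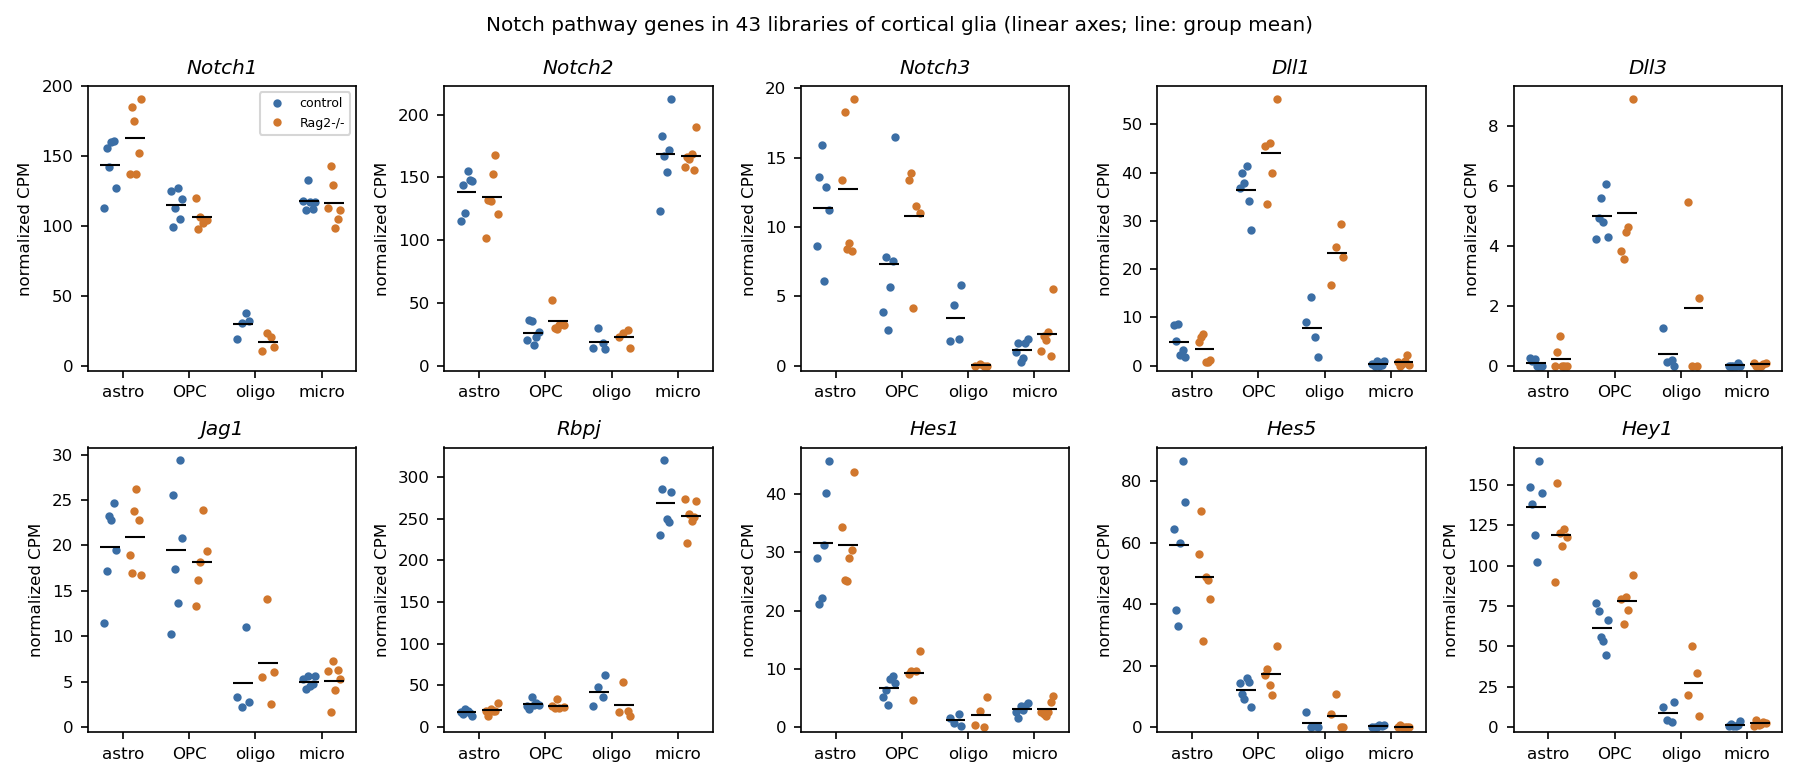
Normalized CPM of each gene (vertical axes, linear) in each of the 43 libraries, by cell type (astro, astrocytes; oligo, oligodendrocytes; micro, microglia). Blue points are control libraries, orange points Rag2-/- libraries and lines group means; Rbpj stands highest in microglia, Dll1 and Dll3 in OPCs, and Hes1, Hes5 and Hey1 in astrocytes.

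Notch1 (ENSMUSG00000026923, chr2:26347915-26406675 on the minus strand of GRCm39) was the receptor shared by 3 of the 4 cell types. Its normalized CPM ran from 113 through a median of 154 to 191 in astrocytes, from 98.3 through 115 to 143 in microglia, from 98.0 through 106 to 127 in OPCs and from 10.7 through 22 to 37.9 in oligodendrocytes. The first 3 ranges overlapped and the oligodendrocyte range lay wholly below them. Oligodendrocytes were 4.92-fold below OPCs (log2 difference 2.30 ± 0.13 SE, adjusted p = 5.06e-18). Astrocytes were 1.38-fold above OPCs (log2 difference 0.46 ± 0.11, adjusted p = 0.000514), which did not pass under plain totals (0.07, adjusted p = 0.638) or totals outside the mitochondrial genome (0.21, adjusted p = 0.115). OPCs and microglia differed by -0.08 ± 0.11 (log2, adjusted p = 0.497), and this turned to 0.38 (adjusted p = 0.00208) with totals outside the mitochondrial genome. Of the exon bases of Notch1, 14% lie under genes of the opposite strand, and whether the counting used strand is not stated.

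Notch2 (ENSMUSG00000027878, chr3:97920800-98057677, plus strand) was high in microglia and astrocytes and low in both cells of the oligodendrocyte lineage. Its level ran from 123 through 166 to 213 normalized CPM in microglia, from 102 through 138 to 168 in astrocytes, from 16.1 through 30.1 to 52.4 in OPCs and from 13.6 through 20.6 to 30.0 in oligodendrocytes. No OPC or oligodendrocyte library reached the lowest astrocyte or microglia library. Astrocytes were 4.48-fold above OPCs (log2 difference 2.16 ± 0.15, adjusted p = 6.04e-16), although both cells had Notch1 within 1.38-fold of each other. The difference of astrocytes from microglia, -0.30 ± 0.13 (log2, adjusted p = 0.0442), lost its call when any of 31 single libraries was left out, with adjusted p-values from 0.0503 to 0.0881 in those fits.

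Notch3 (ENSMUSG00000038146, chr17:32339794-32385893, minus strand) had the lowest level per kb of the 3 receptors in every cell type. It ran from 6.13 through 12.0 to 19.2 normalized CPM in astrocytes, from 2.6 through 7.81 to 16.5 in OPCs and from 0.224 through 1.62 to 5.55 in microglia. Astrocytes and OPCs overlapped, and their difference did not pass (log2 difference 0.41 ± 0.32, adjusted p = 0.321; -0.003 under plain totals). The summed level of 8 mural genes was also highest in these cell types, 225 normalized CPM in OPCs and 129 in astrocytes against 55.1 in oligodendrocytes and 36.2 in microglia, and the part of mural RNA in the Notch3 level was not tested. In control mice alone, astrocytes were 3.17-fold above oligodendrocytes in Notch3 (log2 difference 1.67 ± 0.56, adjusted p = 0.0214) and oligodendrocytes 3.05-fold above microglia (1.61 ± 0.55, adjusted p = 0.0155). The comparison over both genotypes gave -1.99 ± 0.57 for oligodendrocytes minus microglia (adjusted p = 0.00227), the opposite sign. With the mouse as a block it was -0.11 (adjusted p = 0.886). The 4 Rag2-/- oligodendrocyte libraries held 1 Notch3 count in all.

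The Delta-like ligand Dll1 (ENSMUSG00000014773, chr17:15587276-15597134, minus strand), which activates receptors on neighboring cells, had its highest level in OPCs. Its level ran from 28.1 through 39.9 to 55.2 normalized CPM in OPCs, from 1.84 through 15.5 to 29.4 in oligodendrocytes, from 0.665 through 4.05 to 8.67 in astrocytes and from 0 through 0.28 to 2.21 in microglia. Every OPC library lay above every astrocyte and microglia library, and the ranges of OPCs and oligodendrocytes met. OPCs were 9.95-fold above astrocytes (log2 difference of astrocytes minus OPCs -3.32 ± 0.42, adjusted p = 1.27e-08), 2.98-fold above oligodendrocytes (1.57 ± 0.45, adjusted p = 0.00451) and 70.6-fold above microglia (6.14 ± 0.49, adjusted p = 1.47e-14). The difference from oligodendrocytes did not pass in Rag2-/- mice only (0.91, adjusted p = 0.302). The oligodendrocyte mean of Dll1 was 38.8% of the OPC mean, beside 13.98% for the sum of the 7 OPC markers, and the part of OPC RNA in it was not tested. Genes of the opposite strand cover 34.8% of the exon bases of Dll1.

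Dll3 (ENSMUSG00000003436, chr7:27992978-28001673, minus strand), a divergent ligand known to act within its own cell against Notch, followed Dll1 at a lower level. It ran from 3.57 through 4.63 to 8.88 normalized CPM in OPCs, from 0 through 0.159 to 5.47 in oligodendrocytes and from 0 to 0.978 in astrocytes. Microglia held at most 1 count in a library, so Dll3 in OPCs was at least 18.4-fold higher than in microglia, taking 3 counts per library as the floor (adjusted p = 9.55e-10). Astrocytes held 19 counts in all, with 0 in 7 of 12 libraries and 10 in the highest. The OPC mean was 14.9-fold above the same floor in astrocytes, which is no lower bound because that library exceeded it. Every OPC library lay above every astrocyte library, and the difference passed (adjusted p = 4.06e-07 by edgeR). Among oligodendrocytes, Dll3 had 51 and 10 counts in the Rag2-/- and control libraries of pair 1 and 16 in the Rag2-/- library of pair 6, and 0 or 1 in the other 5, and its difference from astrocytes (adjusted p = 0.00836) lost its call without either library of pair 1.

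Jag1 (ENSMUSG00000027276, chr2:136923373-136958693, minus strand), the Jagged ligand among the members, was shared by astrocytes and OPCs. Its level ran from 11.5 through 21.1 to 26.2 normalized CPM in astrocytes and from 10.2 through 18.2 to 29.4 in OPCs, against 2.2 through 4.42 to 14.1 in oligodendrocytes and 1.71 through 5.26 to 7.23 in microglia. The first 2 ranges overlapped widely, and their difference was 0.11 ± 0.24 (log2, adjusted p = 0.738) and turned negative under plain totals (-0.27) and totals outside the mitochondrial genome (-0.14), neither past the threshold. OPCs were 3.70-fold above microglia (1.89 ± 0.25, adjusted p = 7.55e-09) and 3.25-fold above oligodendrocytes (1.70 ± 0.28, adjusted p = 5.59e-06). So of the ligands among the members, OPCs held Dll1, Dll3 and Jag1 together, and in astrocytes Jag1 reached 3.41 normalized CPM per kb against 0.828 for Dll1. Ligands outside the members are described below.

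Rbpj (ENSMUSG00000039191, chr5:53623494-53814704, plus strand), which encodes the DNA-binding factor on which the pathway converges, was present in every cell type and highest in microglia. Its level ran from 221 through 254 to 320 normalized CPM in microglia, from 13.7 through 30.2 to 62.8 in oligodendrocytes, from 22.1 through 25.6 to 36.3 in OPCs and from 12.7 through 19 to 29.4 in astrocytes. The lowest microglia library was above the highest library of any other type. Microglia were 13.9-fold above astrocytes (log2 difference of astrocytes minus microglia -3.79 ± 0.17, adjusted p = 2.5e-23), 9.94-fold above OPCs (-3.31 ± 0.17, adjusted p = 5.86e-21) and 7.94-fold above oligodendrocytes (-2.99 ± 0.19, adjusted p = 8.27e-18). Among the other cell types, astrocytes were 1.40-fold below OPCs (-0.48 ± 0.15, adjusted p = 0.0103), which lost its call without either OPC library of pair 3, and OPCs minus oligodendrocytes gave -0.32 ± 0.17 (adjusted p = 0.124) and turned to 0.69 (adjusted p = 0.00158) under plain totals. Of 5391 windows of 50 bases along the Rbpj transcript, 52.5% have at least 2 exact copies in the genome, so how reads from them were counted is uncertain, and with it the level of Rbpj against other genes. For the other 9 members the share of such windows was at most 0.1%.

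The target Hes1 (ENSMUSG00000022528, chr16:29882134-29886643, plus strand) was highest in astrocytes. It ran from 21.1 through 29.7 to 45.7 normalized CPM in astrocytes, from 3.82 through 8.17 to 13.1 in OPCs, from 1.5 through 2.77 to 5.37 in microglia and from 0 through 1.20 to 5.18 in oligodendrocytes. The astrocyte libraries stood above all others. Astrocytes were 4.02-fold above OPCs (log2 difference 2.01 ± 0.31, adjusted p = 7.37e-07) and 20.4-fold above oligodendrocytes (4.35 ± 0.41, adjusted p = 5.8e-12).

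Hes5 (ENSMUSG00000048001, chr4:155045373-155046828, plus strand), the target most used as a readout of the pathway in neural progenitors, was highest in astrocytes as well. It ran from 27.9 through 52.6 to 86.6 normalized CPM in astrocytes, from 6.65 through 14.5 to 26.4 in OPCs, from 0 through 0.26 to 10.6 in oligodendrocytes and from 0 to 0.626 in microglia. Astrocytes did not overlap any other cell type. They were 3.74-fold above OPCs (1.90 ± 0.42, adjusted p = 0.000285, and 1.60, adjusted p = 0.0619 in Rag2-/- mice only) and 23.7-fold above oligodendrocytes (4.57 ± 0.58, adjusted p = 9.94e-09). Microglia held 30 counts in all, with 0 in 6 of 12 libraries and 10 in the highest. The astrocyte mean was 197-fold above a floor of 3 counts per library there, and the difference passed (adjusted p = 1.24e-15 by edgeR). This is no lower bound, because some microglia libraries exceeded the floor. In oligodendrocytes the RNA was uneven, with 40 and 39 counts in the control and Rag2-/- libraries of pair 1, 83 in the Rag2-/- library of pair 3 and at most 2 in the other 5. Its excess over microglia in oligodendrocytes (adjusted p = 1.37e-05) did not pass (adjusted p = 0.118) without the control library of pair 1. Genes of the opposite strand cover 32.1% of the exon bases of Hes5.

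Hey1 (ENSMUSG00000040289, chr3:8726956-8732385, minus strand) differed least between astrocytes and OPCs among the 3 targets. It ran from 89.8 through 122 to 165 normalized CPM in astrocytes, from 44.9 through 72.0 to 94.0 in OPCs, from 3.22 through 13.9 to 50 in oligodendrocytes and from 0.393 through 1.57 to 4.43 in microglia. Each range met the next one down, and astrocytes did not overlap oligodendrocytes or microglia. Astrocytes were 1.83-fold above OPCs (0.87 ± 0.25, adjusted p = 0.0052), which did not pass under plain totals (0.49, adjusted p = 0.121) or in Rag2-/- mice only (0.66, adjusted p = 0.189). OPCs were 4.40-fold above oligodendrocytes (2.14 ± 0.31, adjusted p = 3.5e-07) and 37.5-fold above microglia (5.23 ± 0.31, adjusted p = 1.03e-18). The OPC means of Hes1, Hes5 and Hey1 were 24.8%, 26.7% and 54.0% of their astrocyte means, beside 15.87% for the sum of the 8 astrocyte markers in OPC libraries. In oligodendrocytes they were 5.2%, 4.7% and 14.2%, beside 10.19% for the astrocyte markers. The part of astrocyte RNA in these levels was not tested.

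**Figure D3:**
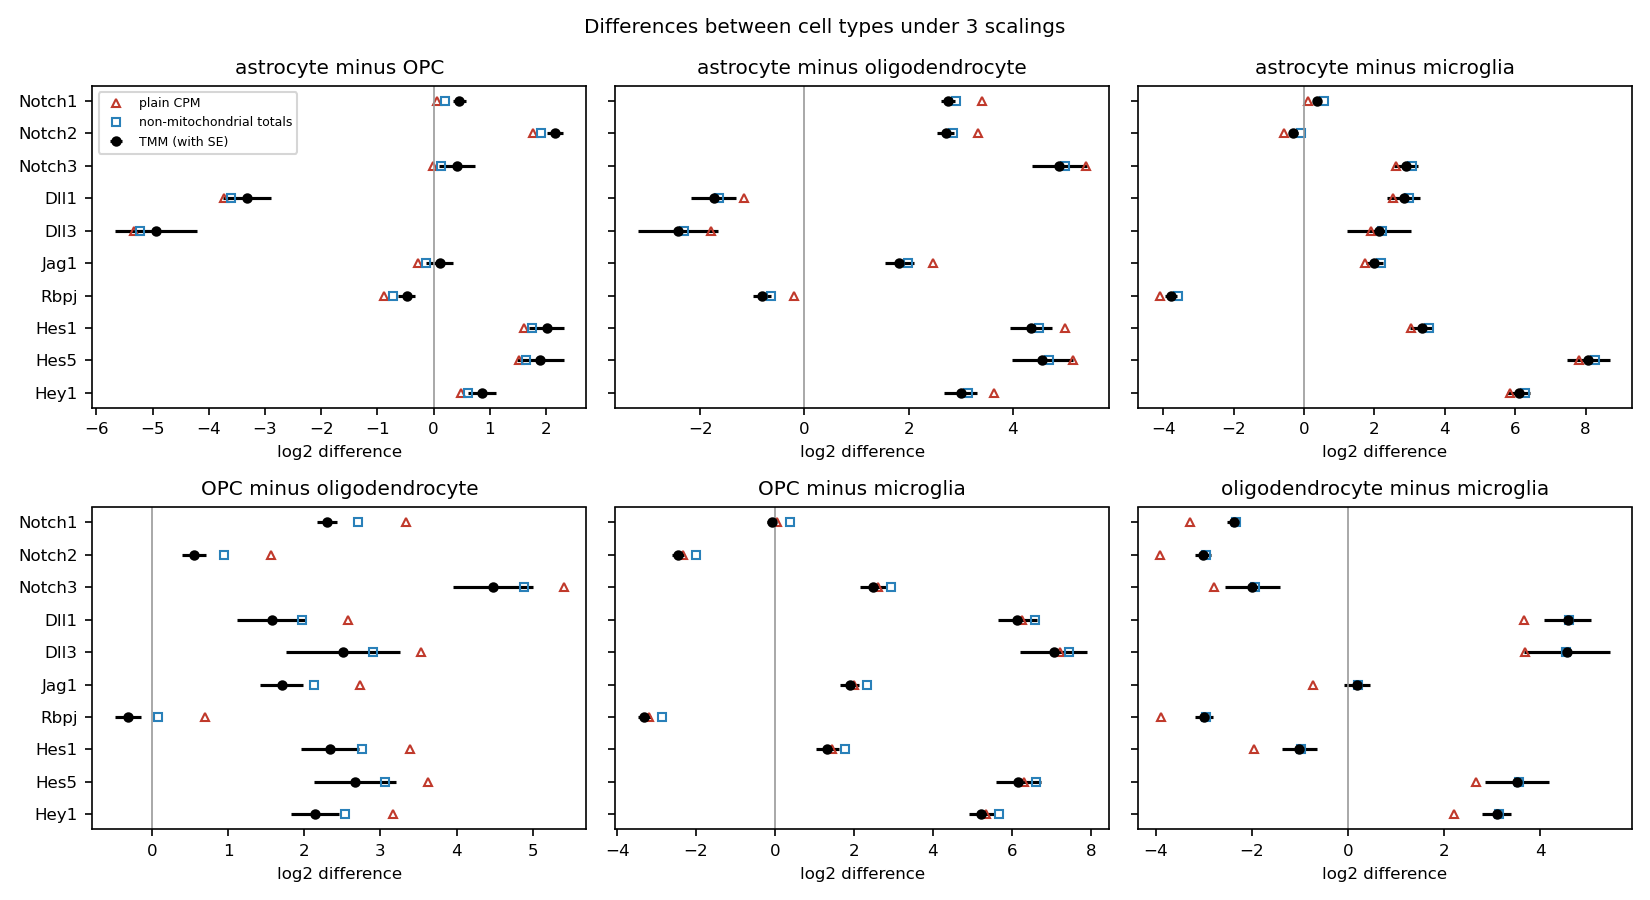
Log2 differences of the 10 genes between cell types (horizontal axes) under TMM scaling (black, with SE), plain library totals (red) and totals outside the mitochondrial genome (blue). Signs changed with the scale for differences of at most 0.41 in size under TMM, such as Jag1 between astrocytes and OPCs and Rbpj between OPCs and oligodendrocytes; Dll1 and Dll3 were on the OPC side and Hes1 and Hes5 on the astrocyte side under each of the 3. For Dll3 against astrocytes or microglia, and Hes5 against microglia, the points are fitted values with almost no counts on one side and set no bound.

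Among the other genes of the pathway, 45 were listed and 42 passed the filter of the joint fit. Between astrocytes and OPCs 3 of them passed higher in astrocytes and 11 higher in OPCs, where 42.6% of all genes passed in either direction, with a median log2 difference of -0.17 against -0.14 over all genes. Between OPCs and microglia 16 passed higher in OPCs and 19 higher in microglia, where 69.5% of all genes passed in either direction, with a median of -0.16 against 0.18. Notch4, the receptor of endothelial cells, had mean levels of 1.98 to 5.08 normalized CPM over the 4 cell types, and Dll4, its vascular ligand, 0.765 to 2.59. The highest mean of each was that of oligodendrocytes, whose libraries were uneven, with medians of 1.19 and 0.501 and highest values of 25.1 and 10.1. Jag2, a second Jagged ligand, had a mean of 9.25 normalized CPM in microglia, 6.01 in oligodendrocytes, 3.82 in OPCs and 0.803 in astrocytes. It was lower in astrocytes than in microglia by a log2 difference of -3.50 ± 0.44 (adjusted p = 2.93e-09 by edgeR). Its oligodendrocyte libraries ran from 0.157 through a median of 2.5 to 24.2, and its OPC median was 3.72. Dner, a membrane protein related to the Delta ligands, had the highest level per kb of this group in OPCs (16.7), astrocytes (11.4) and oligodendrocytes (4.4), and had 1.65 normalized CPM in microglia.

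Of 7 further genes grouped with the targets, from the Hes and Hey families and with Nrarp, 5 passed the filter. Their dependence on Notch was not tested. All 5 passed higher in astrocytes than in oligodendrocytes, where 49.7% of all genes passed in either direction, and 4 passed higher in OPCs than in microglia, where 69.5% did. None passed in the other direction in any of the 6 comparisons. Heyl led this group in astrocytes (3.06 normalized CPM per kb), Hey2 in OPCs (2.75) and Hes6 in microglia (0.88) and oligodendrocytes (0.541). Of the glycosyltransferases that modify the receptors, Lfng, the fringe enzyme that shifts receptors toward Delta ligands, led in astrocytes (24.3 per kb), microglia (21.7) and OPCs (7.04), and Poglut1 in oligodendrocytes (5.49). Of the 9 proteases and γ-secretase subunits that cut the receptors, none passed between astrocytes and OPCs, where 42.6% of all genes did. Between OPCs and microglia 6 passed higher in microglia and 2 higher in OPCs, where 69.5% of all genes passed in either direction. Adam17, a protease that sheds the receptor's outer part, led them in microglia with 21.6 per kb, Adam10 in oligodendrocytes (10.8) and astrocytes (6.41) and Ncstn in OPCs (7.55). Mib1, the ubiquitin ligase that lets ligands be taken up and so pull on receptors, led its group in all 4 cell types at 4.79 to 6.78 per kb. Of the inhibitors and turnover factors, Numb led in microglia (13.1), Fbxw7, which marks the receptor fragment for destruction, in oligodendrocytes (13.4), and Itch in astrocytes (8.22) and OPCs (7.31). Of the nuclear cofactors, the coactivator Maml2 led in OPCs (12.7) and astrocytes (9.77).

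The genes most alike to each member across the 43 libraries were read from the correlation of log2 normalized CPM with 14711 protein-coding genes, as a description in which libraries of one cell type share a lane and a scale. For Notch1 they were Plcb3, Anxa6 and Itm2c (Pearson's r from 0.906 to 0.914), for Notch2 Sat1, Sdc4 and Mertk (0.959 to 0.969) and for Notch3 Zfp219, Adra2a and Sesn1 (0.841 to 0.872). For Dll1 they were B3gat1, Lims2 and Sema3d (0.931 to 0.944), for Dll3 Gsx1, Cntn6 and Cmtm4 (0.887 to 0.895) and for Jag1 Cpne2, Zeb1 and Wnt7a (0.871 to 0.881). For Rbpj they were Srgap2, Pcf11 and Dot1l (0.969 to 0.974), for Hes1 Slc15a2, Zkscan3 and Slc29a2 (0.900 to 0.903), for Hes5 Cecr2, Fzd1 and Wnt7a (0.937 to 0.956) and for Hey1 Gpr37l1, Slitrk2 and Sox21 (0.964 to 0.969). Within the members the highest was 0.91 between Hes5 and Hey1, and Wnt7a was among the 3 nearest genes of both Jag1 and Hes5.

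The study asked whether glial RNA differs without lymphocytes. Genotype was tested within each cell type with a term for sex, and p-values were adjusted over 14725 genes in astrocytes, 16882 in OPCs, 13802 in oligodendrocytes and 15003 in microglia. No member passed in any cell type by edgeR, where 0.00679%, 0.00592%, 0.0% and 0.00667% of all genes did. In simulated counts the oligodendrocyte test recovered 1 of 100 genes changed by a log2 difference of 1, and 19 of 100 changed by 2. The microglia test recovered 58 and 92 of 100, so the lack of calls in oligodendrocytes does not show a lack of change. At an unadjusted p under 0.05 there were 0 of 9 tested members in astrocytes, 1 of 10 in OPCs, 3 of 8 in oligodendrocytes and 0 of 7 in microglia, against 2.87%, 4.02%, 3.38% and 2.91% of all genes. Notch3 was among the 3 in oligodendrocytes and passed the filter on low counts only through its control libraries, so that count is a description. DESeq2 on the same counts called 1 member, Notch3 in oligodendrocytes, among 206 genes called there. The paper, which also used DESeq2, reported more differing genes in oligodendrocytes than in the other cell types. The log2 differences of the 7 members tested in microglia, Rag2-/- minus control, lay between -0.08 (Rbpj) and 0.87 (Notch3), those of the 9 tested in astrocytes between -0.49 (Dll1) and 0.20 (Rbpj), and those of the 10 in OPCs between -0.12 (Notch1) and 0.51 (Notch3). Of the other pathway genes none passed in any cell type, with 2 of 41 in OPCs (Adam17 and Neurl1b) and 1 of 35 in oligodendrocytes (Neurl1b) at an unadjusted p under 0.05.

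Rbpj in microglia had a mean of 253 normalized CPM in Rag2-/- and 269 in control libraries (log2 difference -0.08 ± 0.10), and Notch2 167 and 169 (-0.03 ± 0.11). In astrocytes Hes1 had 31.3 and 31.6 (-0.03 ± 0.21) and Notch1 163 and 143 (0.14 ± 0.11). In OPCs Notch1 was lower in the Rag2-/- mouse in 5 of 5 pairs, with 98.0 to 120 normalized CPM in Rag2-/- libraries and 99.0 to 127 around a median of 116 in controls, and the groups overlapped (log2 difference -0.12 ± 0.10, adjusted p = 1.0 by edgeR). In microglia Notch1 was lower in 5 of 6 pairs (-0.02 ± 0.11), and in astrocytes it was higher in 4 of 6. Dll1 and Hes5 in astrocytes were also lower in 5 of 6 pairs, and Notch3 in microglia was higher in 5 of 6. The share of all genes with such pair counts was not computed. In OPCs Hes1 was higher in the Rag2-/- mouse in 5 of 5 pairs, with 9.15, 9.71, 4.59, 9.59 and 13.1 normalized CPM in Rag2-/- libraries and 3.82 to 8.78 around a median of 6.95 in controls, and the groups overlapped (log2 difference 0.41 ± 0.29, adjusted p = 1.0). Hey1 in OPCs had 79.5, 63.8, 80.9, 72.6 and 94.0 in Rag2-/- libraries against 44.9 to 77.1 in controls (0.33 ± 0.15, unadjusted p = 0.0461, adjusted p = 1.0 by edgeR). The astrocyte marker list in the same OPC libraries summed to 2440 to 5790 normalized CPM in Rag2-/- and 2080 to 3080 in controls, and its part in these values was not tested.

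Oligodendrocytes held the largest genotype differences among the members, in the cell type with the fewest libraries. Notch3 had 1.74, 4.39, 1.90 and 5.82 normalized CPM in the control libraries of pairs 1, 3, 5 and 6, which were 14, 34, 10 and 38 counts. In the Rag2-/- libraries of the same pairs it had 0, 1, 0 and 0 counts. The groups did not overlap. Dll1 did not overlap either, nor did 2.31% of all tested genes in oligodendrocytes. Notch3 passed the filter on low counts only through its control libraries, so its lack of overlap and its test within oligodendrocytes are given as a description. In astrocytes, OPCs and microglia the genotypes overlapped for every tested member, and did not for 0.122%, 0.403% and 0.133% of all tested genes. Taking 3 counts per library as the floor, a mean of 0.399 normalized CPM, Notch3 was at least 8.67-fold lower in Rag2-/- than in control oligodendrocytes. Its genotype test gave an unadjusted p of 0.000727 and an adjusted p of 0.998 by edgeR, and an adjusted p of 0.0116 by DESeq2.

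Whether the genotype difference varied between the 4 cell types was tested in the joint fit. Notch3 was 1 of 53 genes that passed (adjusted p = 0.00142), which were 0.248% of 21368, and the only member to pass. With the littermate pair as a block 34 genes passed, Notch3 among them (adjusted p = 0.000886), and leaving out each library in turn gave adjusted p-values from 0.000262 to 0.0131. Beside the fall in oligodendrocytes, mean Notch3 in Rag2-/- and control libraries was 12.8 and 11.4 normalized CPM in astrocytes, 10.8 and 7.34 in OPCs and 2.29 and 1.15 in microglia, with no difference past the threshold. Notch1 missed it (adjusted p = 0.134) and passed without the control oligodendrocyte library of pair 1 (adjusted p = 0.0234) or the Rag2-/- one of pair 3 (adjusted p = 0.0339), and Rbpj passed without the latter (adjusted p = 0.0302). With no filter on low counts 1011 genes passed in place of 53. Dll1 (adjusted p = 0.0306 by edgeR), Hes5 (0.0379) and Hey1 (0.00374) were then among them as well. A share of all genes is not given for this fit. Hes5 did not pass the filter of the fit within oligodendrocytes, whose libraries held 0 to 83 of its counts.

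Marker lists of vessel cells are given for the same libraries. The 8 mural markers, among them Pdgfrb, Rgs5 and Acta2, summed to 15.6, 22.6, 92.3 and 169 normalized CPM in the control oligodendrocyte libraries of pairs 1, 3, 5 and 6 and to 16.8, 12.4, 53.9 and 57.7 in the Rag2-/- ones, so these groups overlapped. Of the 8, 7 had counts in both genotypes, and Tagln was at 0 in the Rag2-/- libraries. The 5 fibroblast markers summed to 3.11, 2.58, 17.4 and 20.2 in controls and to 2.79, 0.256, 0.314 and 0.7 in Rag2-/- libraries. Lum was at 0 in all 8 libraries. Dcn, a fibroblast proteoglycan, had a mean of 6.34 normalized CPM in controls and 0.153 in Rag2-/- libraries. Rgs5, a pericyte gene from the mural list, had 23.7 and 18.8. The median sum of all 8 mural markers was 57.5 in controls and 35.4 in Rag2-/- libraries. The 8 endothelial markers summed to 11.2, 12.8, 16.3 and 47.0 in controls and to 17.4, 4.09, 20.9 and 26.2 in Rag2-/- libraries. The part of vessel-wall RNA in the Notch3 difference was not tested.

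**Figure D4:**
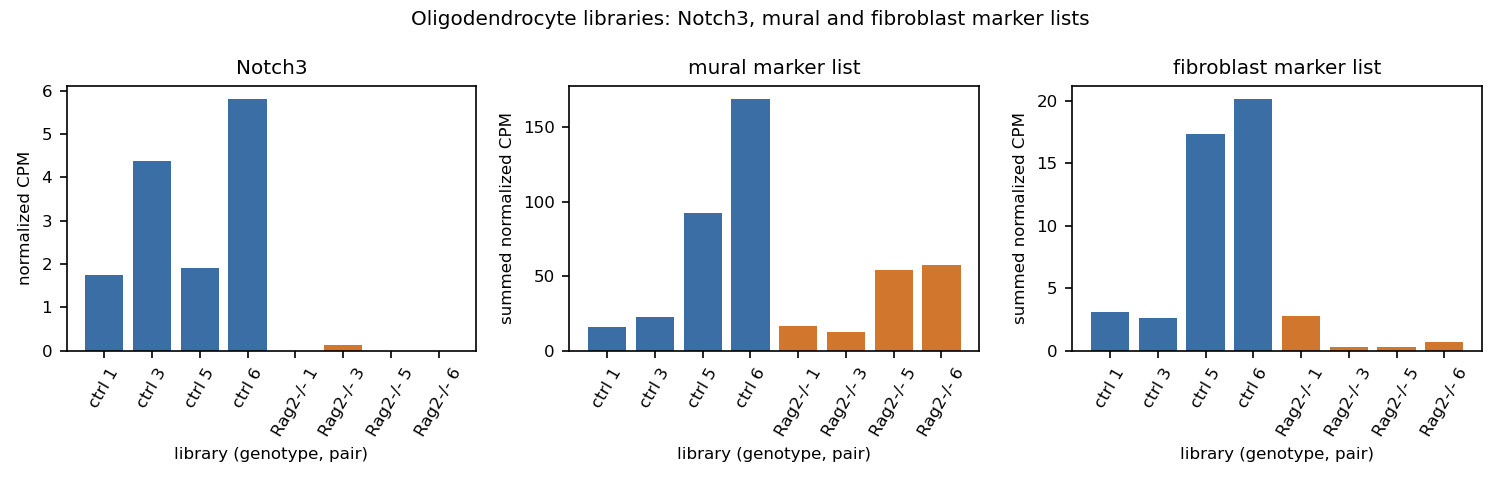
Notch3 (normalized CPM) and the summed normalized CPM of 8 mural and 5 fibroblast markers in the 8 oligodendrocyte libraries, control (blue) and Rag2-/- (orange), by littermate pair. Notch3 ran from 1.74 to 5.82 in the control libraries and from 0 to 0.128 in the Rag2-/- ones. The mural sums ran from 15.6 to 169 in controls and from 12.4 to 57.7 in Rag2-/- libraries.

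Dll1 in oligodendrocytes had 8.97, 14.2, 5.88 and 1.84 normalized CPM in the control libraries of pairs 1, 3, 5 and 6 and 16.8, 24.5, 29.4 and 22.5 in the Rag2-/- ones. Every Rag2-/- library was above every control library, and the log2 difference was 1.58 ± 0.64 (unadjusted p = 0.0309, adjusted p = 0.998 by edgeR). The sum of the 7 OPC markers in these libraries was 356, 657, 536 and 213 in controls and 619, 785, 460 and 234 in Rag2-/- libraries, and its part in the difference was not tested. Hey1 had 12.3, 4.52, 3.22 and 15.5 in controls and 19.7, 50, 33.5 and 6.58 in Rag2-/- libraries, higher in 3 of 4 pairs with overlapping groups (1.95 ± 0.70, unadjusted p = 0.0171, adjusted p = 0.998 by edgeR). Notch1 was lower in the Rag2-/- library of 4 of 4 pairs, with 19.3, 30.5, 37.9 and 31.9 in controls and 10.7, 23.5, 20.4 and 13.2 in Rag2-/- libraries, and the groups overlapped (-0.89 ± 0.44, adjusted p = 0.998). Rbpj had 24.8, 47.5, 35.6 and 62.8 in controls and 18.2, 54.3, 19.5 and 13.7 in Rag2-/- libraries (-0.64 ± 0.46, adjusted p = 0.998), and Notch2 differed by 0.28 ± 0.46.

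**Figure D5:**
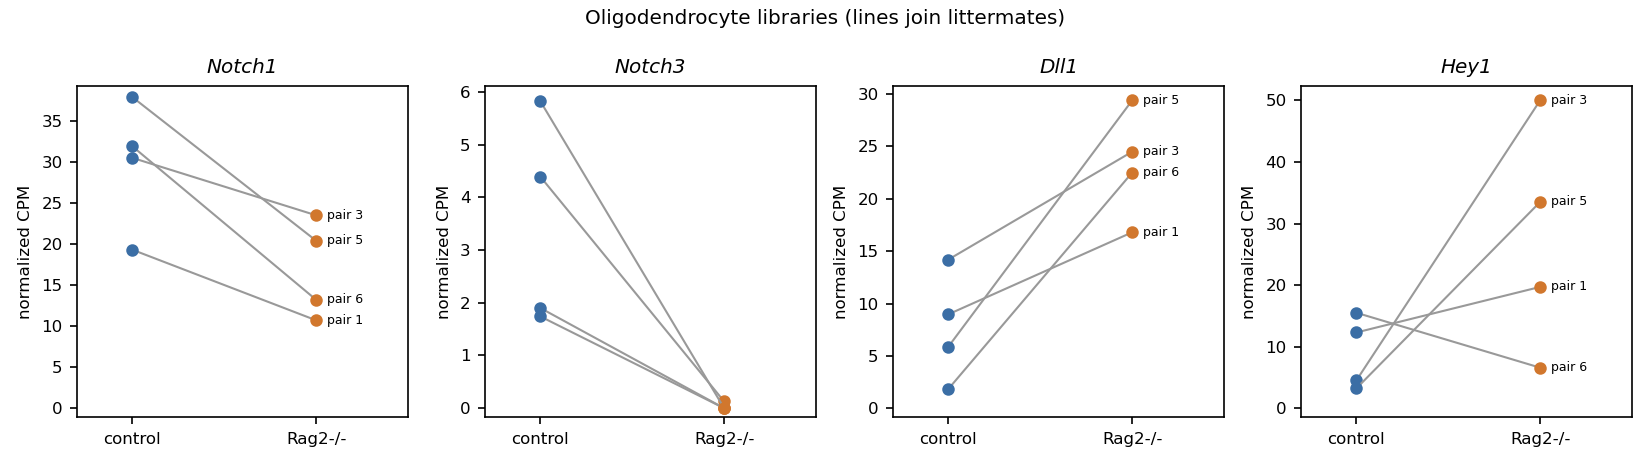
Normalized CPM (vertical axes) of Notch1, Notch3, Dll1 and Hey1 in control and Rag2-/- oligodendrocyte libraries, with lines joining littermates. Notch1 and Notch3 were lower and Dll1 higher in the Rag2-/- mouse in each of 4 pairs, and Hey1 was higher in 3 of 4.

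Sex was tested in the same fits. No member passed in any cell type by edgeR, where 0.0407% of genes did in astrocytes, 0.0296% in OPCs, 0.0362% in oligodendrocytes and 0.0467% in microglia. In astrocytes Notch1 (log2 difference of females minus males 0.24 ± 0.11) and Hey1 (0.27 ± 0.12) had unadjusted p-values under 0.05, with adjusted p-values of 0.731 and 0.724 by edgeR. These were 2 of 9 tested members in astrocytes, where 6.73% of all genes had such a p, and there were 0 in OPCs, oligodendrocytes and microglia, where 4.3%, 8.23% and 3.92% of all genes did. DESeq2 called no member for sex.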

How the data were processed

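RNA of immunopanned astrocytes, OPCs, oligodendrocytes and microglia was amplified with the Ovation V2 kit and sequenced in pairs of short reads. The authors aligned reads to GRCm39 with STAR 2.7.8a and deposited whole-number counts per Ensembl gene made with HTSeq, whose strand setting and overlap mode are not given in the sources used here. Lines that name no gene (33.5% to 52.0% of all counts) were left out of library sizes. Here counts were tested with edgeR 4.0.16 (quasi-likelihood, TMM factors, filterByExpr at min.count 10 and min.total.count 15) at a Benjamini-Hochberg adjusted p of 0.05. Genotype was fitted within each cell type with sex as a covariate, as in the study's model. Cell types and the genotype-by-cell-type term were fitted over all 43 libraries. The cell types of a mouse were treated as separate in the joint fit, with the mouse as a block as an alternative. DESeq2 1.42.0, other scalings, no filter, 1 genotype alone, blocks and leaving out each library were alternatives. Scripts were tested on simulated data. Exon lengths came from GENCODE M39, in which 54749 of 55416 identifiers were found, and sequences from the GRCm39 genome.

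The labels tie libraries to 12 mice in 6 littermate pairs. Deviations from group means correlated at 0.055 to 0.079 on average within pairs, by cell type, and at -0.026 to -0.011 between them. No pair of libraries of a group was identical (lowest chi-square per gene 7.45 over 97 pairs). The p-values of fits within a cell type measure the spread between these mice. Those of the joint fit measure the spread between libraries within groups of cell type and genotype, with the cell types of a mouse treated as separate. Floors of 3 counts per library cover counting error only, since reads carried no molecular identifiers. The members and gene lists were chosen with earlier results of these data known. All members were named. Of 45 other pathway genes, Notch4, Dll4, Jag2 and the gene with the highest level per kb in each list and cell type were named, with the 3 genes most correlated with each member. Others were named after their values were seen. A result on 1 nuclear cofactor and 1 upstream sequence are not reported here.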

Additional observations from a re-analysis of the deposited data

Results flagged for a closer look

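Notch3 was flagged because its genotype difference varied between cell types (adjusted p = 0.00142 in edgeR's joint test), with the fall in oligodendrocytes described above.

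Of 76 sets of 4 to 6 libraries tested, 11 held 1 library far from the others by Dixon's criterion, and chance flags about 1 in 20. Each was the highest of its set, in normalized CPM. Among OPCs, Notch2 had 52.4 in the Rag2-/- library of pair 1 (others 28.8 to 32.3), Notch3 had 16.5 in the control of pair 6 (others 2.6 to 7.81), Dll3 had 8.88 in the Rag2-/- library of pair 6 (others 3.57 to 4.63) and Rbpj had 33.6 in the Rag2-/- library of pair 3 (others 22.4 to 25.6). Among oligodendrocytes, the control of pair 1 had 1.25 of Dll3 (others 0 to 0.19) and 4.98 of Hes5 (others 0 to 0.379). The control of pair 5 had 11 of Jag1 (others 2.2 to 3.36), and the Rag2-/- library of pair 3 had 54.3 of Rbpj (others 13.7 to 19.5). Among microglia, Notch1 had 133 in the control of pair 3 (others 111 to 118), Notch3 had 5.55 in the Rag2-/- library of pair 6 (others 0.689 to 2.43) and Hes5 had 0.604 in the Rag2-/- library of pair 2 (others 0 to 0.157).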

How the results depend on the processing

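Of 480 alternative values of the 60 differences between cell types, 439 kept their direction and side of the threshold, 30 lost the call, 1 gained it and 10 changed sign. The sign changes were in Notch3 for astrocytes minus OPCs (-0.003 under plain totals), Jag1 in the same comparison (-0.27 under plain totals, -0.14 outside the mitochondrial genome), Rbpj for OPCs minus oligodendrocytes (0.69 and 0.08 under these scalings), Notch1 for OPCs minus microglia (0.04 and 0.38), Notch3 for oligodendrocytes minus microglia (1.61 in controls only) and Jag1 there (-0.72 under plain totals, -0.23 in controls only, and -0.29 to 0.25 when single libraries were left out). The causes were not tested.

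Genes called between astrocytes and OPCs numbered 5997 in controls only and 4970 in Rag2-/- mice only, with 5 members called in the latter, where fewer libraries entered. Between OPCs and oligodendrocytes they numbered 14634 under plain totals, 5194 in controls only and 5402 in Rag2-/- only. Among called genes the share higher in the first cell type went from 40.2% to 20.8% under plain totals for astrocytes minus OPCs, from 48.4% to 75.4% for astrocytes minus oligodendrocytes, from 61.4% to 93.2% for OPCs minus oligodendrocytes and from 48.9% to 29.3% for oligodendrocytes minus microglia, and from 55.6% to 68.5% outside the mitochondrial genome for OPCs minus microglia.

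With no filter on low counts the genotype-by-cell-type term passed for 1011 genes and 4 members. With the littermate pair as a block it passed for 34 genes. Without single libraries it passed for 29 to 158 genes and 1 to 3 members, with 34 and 33 without the control and Rag2-/- microglia of pair 4, and 158, 82, 91, 100 and 29 without the oligodendrocytes control 1, Rag2-/- 1, control 3, Rag2-/- 3 and Rag2-/- 5. Genotype calls with no filter were 30 in astrocytes, 90 in OPCs, 14 in oligodendrocytes and 9 in microglia. DESeq2 called 5 in OPCs, 206 in oligodendrocytes (1 member) and 3 in microglia, and leaving out single libraries gave 1 to 2 in microglia. Sex calls with no filter were 118, 72, 99 and 25 in astrocytes, OPCs, oligodendrocytes and microglia, 19, 13, 422 and 11 by DESeq2, and 3 to 5 in oligodendrocytes without single libraries. With the mouse as a block Dll3 lost its call for astrocytes minus oligodendrocytes (adjusted p = 0.0999) and minus microglia (adjusted p = 0.0564), and Notch3 for oligodendrocytes minus microglia (-0.11). The blocks changed no other member's call. Depth limits Dll3 outside OPCs and Hes5 in oligodendrocytes and microglia, where most libraries held few counts or none. With lengths of canonical transcripts, chosen after seeing the data, 3 members kept their rank per kb in OPCs and 2 in oligodendrocytes.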
